A study of Mus musculus with 2 samples.

Results

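The genes described here are Snai1, Snai2 and Cdh1, and the data are the places around them where FLAG-tagged Msgn1 was recovered from chromatin. Members were the listed peaks whose midpoint lay within 100 kb of one of these 3 genes, with the gene positions known to the nearest kb on the mm9 build. The rule found 5 peaks of the 4087 in the list: 4 at Snai1, 1 at Cdh1 and 0 at Snai2. The members were selected on the positions of the listed peaks of FLAG over input, and the genes were chosen with that list known. So the counts and distances below describe the list and none of them is tested.

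Msgn1 (mesogenin 1), of the basic helix-loop-helix family, acts in the presomitic mesoderm that gives rise to somites. The study mapped its binding by chromatin immunoprecipitation and sequencing (ChIP-seq) in mouse embryoid bodies, the aggregates in which embryonic stem cells differentiate. The A2lox FMsgn1 line, labelled C57BL/6, carries a FLAG-tagged Msgn1 that doxycycline switches on. Embryoid bodies of day 2 received 1 ug/ml doxycycline, and both libraries come from cells collected 36 h later: 1 recovered with the anti-Flag M2 antibody and 1 of input DNA with no antibody. Msgn1 was thus induced in both, and no library of uninduced or untagged cells was analysed here. The binding is that of an induced, tagged protein in whole embryoid bodies, and the cells could not be checked against marker genes because no expression was measured in these data. With 1 library per group no value below has a replicate error.

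Snai1 (Snail) and Snai2 (Slug) encode zinc-finger repressors of transcription that promote an epithelial-to-mesenchymal transition. In this change cells leave an epithelium during gastrulation and become mesoderm. Both Snail factors bind E-boxes of the form CAGGTG, or CACCTG on the other strand. Cdh1 encodes E-cadherin, the adhesion molecule of epithelial junctions, and is the classical gene that Snail factors repress. Basic helix-loop-helix proteins such as Msgn1 also bind E-boxes, in the wider form CANNTG.

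The start of Snai1 is shown because the promoter sequences used held an entry for Snai1 and none for Snai2 or Cdh1. This start carries an E-box of the Snail type, which is also of the wider form CANNTG. No Msgn1 peak was listed over that start, and binding of Snail factors was not measured. The line below holds the 250 bases before the Snai1 start, plus strand, from RefSeq on GRCm38.p6, with E-boxes in capitals. A search for CANNTG, which reads the same on both strands and includes CAGGTG and CACCTG, found 1 match, CACCTG, from −126 to −121 counted from the first transcribed base.
Snai1: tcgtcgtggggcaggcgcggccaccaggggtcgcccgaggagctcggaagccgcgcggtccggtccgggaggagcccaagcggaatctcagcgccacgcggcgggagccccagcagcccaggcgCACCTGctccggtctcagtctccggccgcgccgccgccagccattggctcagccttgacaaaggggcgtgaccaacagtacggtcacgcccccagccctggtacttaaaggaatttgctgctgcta
Such matches are common: of 32817 promoter windows of this length in the same RefSeq table, 66.2% held CANNTG and 17.2% held CAGGTG or CACCTG. The match is a run of letters and says nothing on binding. Of the 3 genes, Snai1 had an entry in that table. The sequences under the peaks were not analysed here, since no mm9 genome was used.

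At Snai1 all 4 peaks lay downstream of the gene, on the side past its last exon, and none lay upstream or within it. Snai1 spans chr2:167364-167368 in kb and is read toward higher positions. The first peak, chr2:167368488-167369262, is 775 bp wide and has the authors' score of 425. Its midpoint was 0.87 kb past the gene end and 4.87 kb past the start. Because the gene position is known only to 0.5 kb either way, overlap of this peak with the very end of the gene cannot be told apart from a place just beyond it. The score is a value that the authors' peak caller gave each peak, on a scale that the list does not state, and it is used to rank peaks within this list. MACS often writes a log-transformed p-value in such a column, which could not be checked here, so the size of a difference between scores has no known meaning.

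This first peak was among the highest of the whole list, at rank 41 of 4087, and 99.0% of the peaks scored lower. It was not wide for its score: the 31 other peaks scoring within 10% of it had a median width of 877 bp. Of all listed peaks, 28.6% scored 100 or more. It was the only one of the 5 members that did.

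The other 3 peaks downstream of Snai1 scored above the list median of 72.8, with 56.0% to 62.3% of the listed peaks scoring lower. The second, chr2:167383854-167384712, lay 16.3 kb past the gene end, scored 85.3 (rank 1539) and was 859 bp wide, the widest of the members. Next, the peak chr2:167389277-167389927, lay 21.6 kb past the end, had a score of 83.6 (rank 1582) and was 651 bp wide. The farthest, chr2:167414405-167415113, lay 46.8 kb past the end, scored 77.8 (rank 1798) and was 709 bp wide. Scores at Snai1 were thus 425 (rank 41) beside the gene and 77.8 to 85.3 (ranks 1539 to 1798) farther out. They descended with distance in all 4, which is an order of 4 single values with no error.

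**Figure D1:**
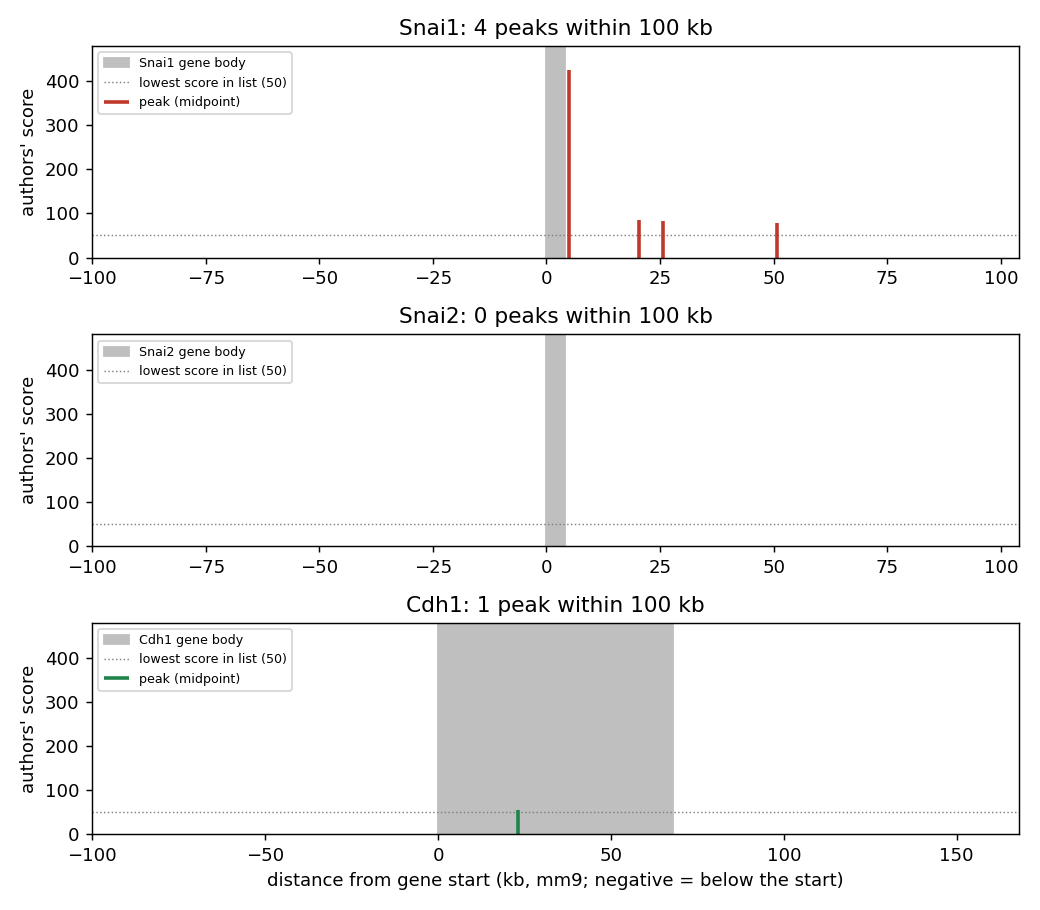
Peaks within 100 kb of each gene, by distance of the peak midpoint from the gene start in kb (mm9; the Cdh1 axis is longer because the gene is) and by the authors' score; the grey block is the gene and the dotted line the lowest score in the list, 50. At Snai1 the 4 peaks all lie past the gene, with 425 next to it and 77.8 to 85.3 beyond, Snai2 has 0 peaks and Cdh1 has 1 peak inside the gene at 54.6.

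The 4 peaks form 1 cluster when neighbours at most 50 kb apart are joined. The cluster spans chr2:167368488-167415113, or 46.6 kb, and its peaks cover 2994 bp of it. The distances between its peaks are 14.6, 4.56 and 24.5 kb. The middle peaks are thus a close pair, with 1 peak on each side at a larger distance. In the gene order of GRCm38.p6, the next protein-coding gene past Snai1 is Ube2v1, which encodes a ubiquitin-conjugating enzyme variant. Tmem189 and then Cebpb, which encodes a basic leucine zipper factor, follow it. The non-coding Gm11476, Gm31619 and Gm11475 start between Snai1 and Ube2v1. The peaks were not placed on this order, because it belongs to another build. They are named here by their distance to Snai1, and the gene each peak may act on was not tested.

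The list held 35 such clusters of 4 or more peaks, which took in 154 peaks or 3.77% of the list, and 25 of them had exactly 4. By its highest score the Snai1 cluster had rank 5 of the 35 and rank 2 of the 25. Its highest peak has rank 41 in the whole list and its second highest rank 1539. The 4 clusters with a higher top score also had a higher second score. With joining up to 10 kb the peak of rank 41 stood alone, and 2 peaks stayed joined, those scoring 85.3 and 83.6, so the place of the cluster by its highest score depends on the joining distance. Its highest peak sat at one end of the cluster, as in 9 of the 35. In length it was ordinary, at rank 24 of the 35, and the clusters of exactly 4 had a median span of 52.1 kb. Of the 56 peaks in the list scoring 400 or more, 30 had no other peak within 50 kb and 6 belonged to a cluster of 4 or more. The Snai1 peak is 1 of those 6.

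**Figure D2:**
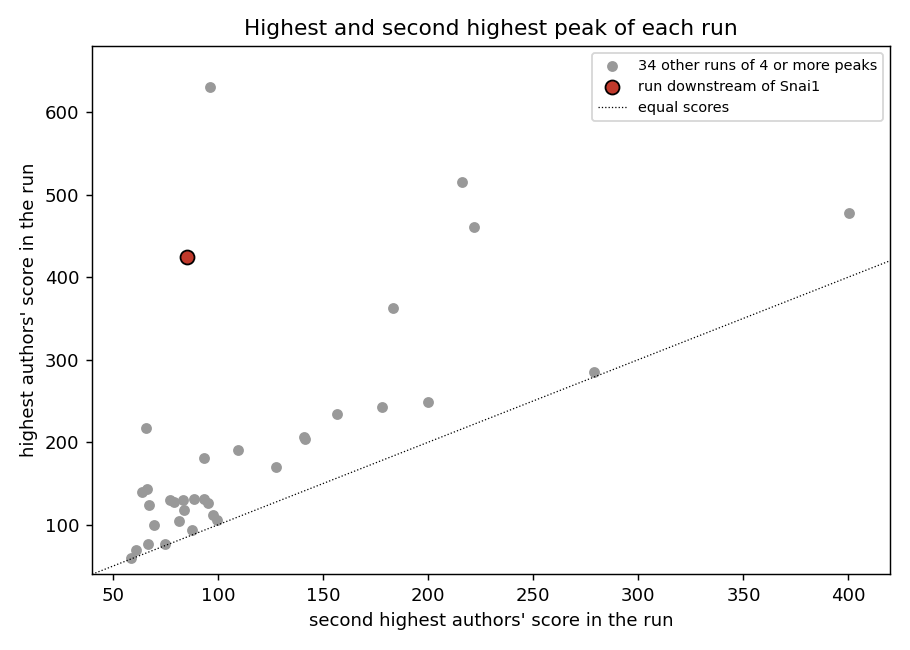
Highest authors' score (vertical axis) against second highest (horizontal axis) in each of the 35 clusters of 4 or more peaks, 1 point per cluster, with the dotted line at equal scores. The Snai1 cluster, in red, lies at 425 and 85.3, and the 4 clusters above it all lie farther to the right.

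No listed peak lay close to the Snai1 cluster on either side. Below it the next peak was 836 kb away and above it 663 kb away, where the median distance between neighbouring peaks was 278 kb. Of the 4067 neighbouring pairs in the list, 21.0% were at least as far apart as the first of these and 26.3% as the second, so each is a common distance. With the nearer side taken for each cluster, the Snai1 cluster was second of the 35 in its distance to the next peak, at 663 kb against a median of 102.8 kb. The next peaks scored low, with 50.7 (rank 3923) for chr2:166531872-166532394 and 59.1 (rank 2926) for chr2:168078335-168079189.

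The neighbour below was itself the end of a cluster of 4 peaks, chr2:166430930-166532394, with scores from 50.7 to 77.1. No other pair of clusters of 4 or more lay within 1 Mb of each other: these 2 were the only ones of the 35. The weaker cluster lies upstream of Snai1 and spans 101.5 kb. A cluster of 5, chr2:168605326-168669131, with a highest score of 249, began about 1242 kb past the Snai1 start, measured to the midpoint of its first peak. In all, 18 peaks lay within 1500 kb of the Snai1 start, and the highest of them was the peak beside the gene.

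**Figure D3:**
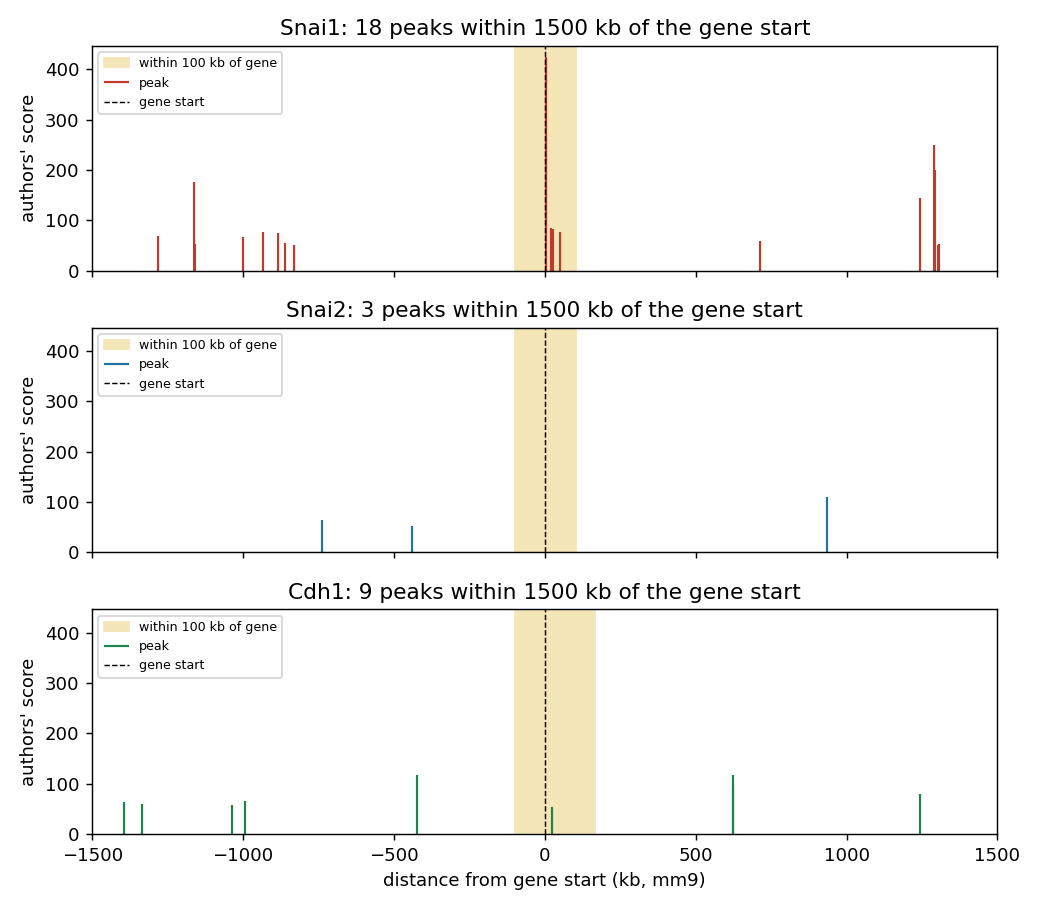
All listed peaks within 1500 kb of each gene start, by distance in kb (mm9) and the authors' score; the band marks the gene and 100 kb on each side. Snai1 has 18 peaks with the highest, 425, beside the gene, Snai2 has 3 and Cdh1 has 9, and the bands of Snai2 and Cdh1 hold 0 and 1.

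At Snai2 no peak was listed within 100 kb. The gene spans chr16:14706-14710 in kb. The nearest peak, chr16:14265509-14266110, lay 440.2 kb below the gene and scored 52.2 (rank 3715). On the other side the nearest was chr16:15640312-15641059, 930.7 kb above the gene, with a score of 110.4 (rank 986). Snai2 thus sits in a stretch of 1374 kb without a listed peak. Of the 4067 neighbouring pairs, 473 (11.63%) were farther apart. By length, stretches at least as long made up 52.3% of the 2523.7 Mb spanned by the list, and 38.7% of that span was at least as far from any peak as Snai2. A peak that missed the authors' limit would not be listed, so the absence is of a listed peak and not of all binding. In GRCm38.p6 the nearest named protein-coding gene above Snai2 is Efcab1.

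At Cdh1 the 1 peak lay inside the gene. The gene spans chr8:109127-109195 in kb and, like Snai1, is read toward higher positions. The peak, chr8:109149791-109150480, had its midpoint 23.1 kb past the gene start, at 34.0% of the gene length. Whether it falls in an exon or an intron was not analysed here. It is 690 bp wide and scored 54.6, at rank 3431, with 654 peaks (16.0%) scoring lower, where the lowest listed score was 50. Peaks with a like score were narrower: 1234 others within 10% of it had a median width of 600 bp. At the Cdh1 start itself no Msgn1 peak was listed. Snail factors are known to bind E-boxes there, but their binding was not measured in these data.

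The Cdh1 peak had no neighbour within 400 kb. The next peaks were chr8:108703730-108704432, 422.9 kb below the gene with a score of 116.6, and chr8:109749863-109750689, 555.3 kb above it with a score of 95.6. Both scored higher than the peak inside Cdh1. In the gene order of GRCm38.p6, Cdh1 lies between Cdh3, which encodes P-cadherin, and Tango6. Neither of the 2 peaks outside was assigned to a gene.

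**Figure D4:**
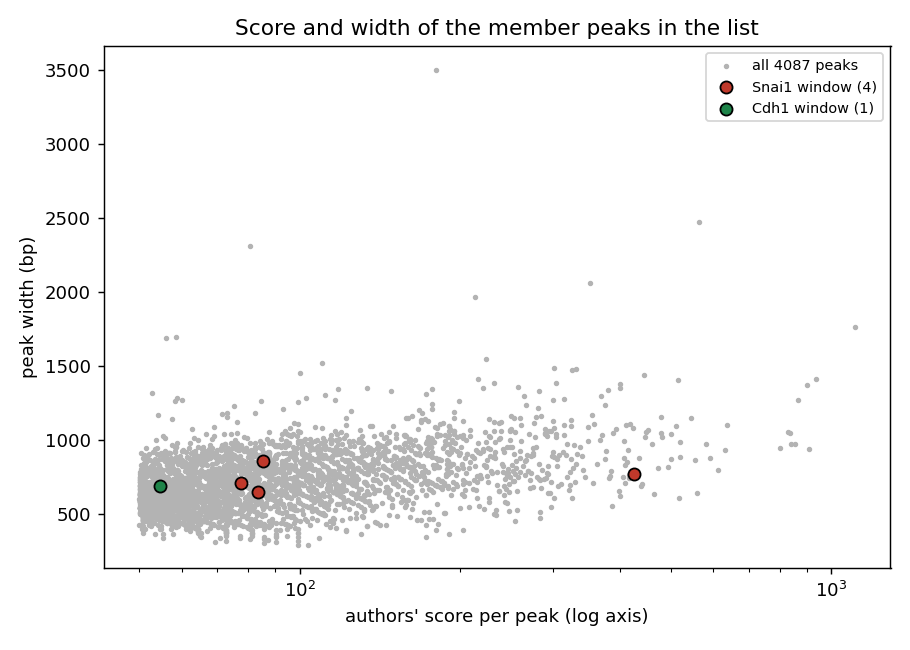
Peak width in bp against the authors' score (log axis) for the 4087 listed peaks in grey, with the 4 Snai1 peaks in red and the Cdh1 peak in green. The red point at 425 is the highest of the 5 members. The other 4 score 54.6 to 85.3, and widths of the 5 run from 651 to 859 bp.

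Set side by side, the 3 genes differed in number, place and score of their peaks. Snai1 had 4 peaks, all past its end, Cdh1 had 1 within it, and Snai2 had 0. Scores at Snai1 ranged from 77.8 to 425 and all lay above the list median, while the Cdh1 score lay below the list's lower quartile of 57.9. As a background, the list was divided into windows laid end to end, as wide as a gene of 4 kb with 100 kb on each side. Of 12362 such windows of 204 kb, 24.3% held at least 1 peak and 0.534% held at least 4. Of 9405 windows of 268 kb, the width that applies to Cdh1, 29.8% held at least 1. These windows were placed without regard to genes. The 3 genes were chosen with the list known, so nothing is read from their counts against these shares.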

How the data were processed

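ChIP-seq of FLAG-tagged Msgn1 and input DNA (1 library each) was available as 1 deposited peak list of FLAG over input. Peaks were called with MACS, per the peak names in the deposited list. CASAVA 1.4, FastQC and mm9 are named in the submitters' processing notes. For the aligner, read filtering and caller settings, details were not given in the sources used here. Each peak's score is the authors' deposited value on an unstated scale, from 50 to 1107. No read counts were used, so depth is unknown and no interval is given.

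Starts were read as 0-based and are printed 1-based. Distances from a peak to a gene run from the peak midpoint to the nearest gene edge, or to the gene start where stated. Distances between peaks or clusters, and stretches without a peak, run from edge to edge. The named genes are the 3 chosen, with every peak within 100 kb, the nearest outside and their neighbours in gene order. Other genes of the transition were not analysed here, for want of mm9 positions. Members and lists were chosen with earlier results of these data known. Counting was tested on simulated data. Python 3.11.15, numpy 2.4.6 and pandas 2.3.3 were used, and alternatives varied the window, the distance, the score limit and the joining distance.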

Additional observations from a re-analysis of the deposited data

How the results depend on the processing

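The 5 peaks near the 3 genes were also found with windows of 50 and 200 kb, with distances from the nearest peak edge and with distances from the gene start. A window of 400 kb, chosen after seeing the data, gave 5 as well, and 1 of 500 kb gave 7. The peaks added at 500 kb were those 440.2 kb below Snai2 and 422.9 kb below Cdh1. At that width Snai2 thus had 1 peak, while Snai1 still had 4. A score of at least 60 left 4 peaks, without the one at Cdh1, and a score of at least 100 left 1, since only the peak beside Snai1 scores that high. The cluster downstream of Snai1 held 4 peaks with joining up to 100 kb and 3 with joining up to 20 kb. With joining up to 10 kb it held 2, the middle pair scoring 85.3 and 83.6, and the peak of 425 beside Snai1 was no longer part of it. At a score of at least 100 it held 1. The share of 204 kb windows with a peak was 24.3% end to end and 24.2% at overlapping steps. With 1 library per group, leaving out replicates was impossible. No paired analysis was possible because no result comes from a test. The depth is unknown, so absence near Snai2 is limited by the authors' threshold.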
